A study of Mus musculus with 25 samples.

Results

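Dbp, Tef, Hlf, Nfil3, Bhlhe40, Bhlhe41, Ciart and Rora are 8 transcriptional regulators that carry or modulate the output of the circadian clock. They were taken by symbol from the 55487 genes of the deposited count table, and all 8 were among the 19155 genes that passed the filter on low counts. The set was chosen by function with earlier results of these counts in view, and it was selected on the expression difference between runners and cage mice in so far as Dbp and Nfil3 had passed that test. Differences between runners and cage mice are therefore given for these genes as a description, with no p-value. Genotype, sex, their combination with running, and the covariation of the genes within groups were not used in the choice and were tested.

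RNA was measured in whole Achilles tendons of mice aged 3 months. The groups were AMPKcKO with wheel running (cKO running, 6 libraries), AMPKcKO with cage activity (cKO cage, 6), wild type with wheel running (WT running, 6) and wild type with cage activity (WT cage, 7), each with 3 females and 3 males except WT cage, with 4 females and 3 males. The title of the series concerns loss of AMPKα1, a catalytic subunit of the energy sensor AMPK and the product of Prkaa1. The promoter that drives Cre, the strain and the hour of collection are not given in the sources used here. The labels do not say that each library is a separate animal, so p-values measure the spread between these libraries.

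The clock runs on a loop in which CLOCK and BMAL1 (encoded by Arntl) bind E-box elements and switch on their own repressors. Dbp, Tef and Hlf are the PAR bZIP factors, which bind D-box elements and activate genes there, and NFIL3 binds the same elements and represses. The BHLHE40 and BHLHE41 proteins and CIART (CHRONO) are E-box-level repressors of CLOCK and BMAL1, and RORA activates through ROR elements, which the repressor NR1D1 also binds. Mouse tendon is known to hold such a peripheral clock.

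The sequences around the starts of these genes hold some of the elements named above, and those of the genes the results turn on are shown for that reason. They are RefSeq windows on GRCm38.p6 of 300 bases, from 250 bases before to 50 after a gene start, which 7 of the 8 genes have. Capitals mark an E-box (CACGTG) or the core of a ROR element (TAGGTCA or TGGGTCA, here read on either strand).
Dbp, chr7:45704997-45705296, plus strand: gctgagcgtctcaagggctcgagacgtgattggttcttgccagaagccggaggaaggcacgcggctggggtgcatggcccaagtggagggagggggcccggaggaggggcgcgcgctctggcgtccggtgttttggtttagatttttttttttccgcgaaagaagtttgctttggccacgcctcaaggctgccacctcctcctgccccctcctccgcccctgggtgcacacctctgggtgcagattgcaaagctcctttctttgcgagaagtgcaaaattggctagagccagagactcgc
Ciart, chr3:95882179-95882478, minus strand: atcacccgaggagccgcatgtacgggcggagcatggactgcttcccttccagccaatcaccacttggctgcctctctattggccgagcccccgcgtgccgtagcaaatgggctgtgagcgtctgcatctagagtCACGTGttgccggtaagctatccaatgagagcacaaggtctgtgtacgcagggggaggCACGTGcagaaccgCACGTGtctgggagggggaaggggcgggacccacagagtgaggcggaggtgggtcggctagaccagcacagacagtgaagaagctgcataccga
Tef first start, chr15:81802423-81802722, plus strand: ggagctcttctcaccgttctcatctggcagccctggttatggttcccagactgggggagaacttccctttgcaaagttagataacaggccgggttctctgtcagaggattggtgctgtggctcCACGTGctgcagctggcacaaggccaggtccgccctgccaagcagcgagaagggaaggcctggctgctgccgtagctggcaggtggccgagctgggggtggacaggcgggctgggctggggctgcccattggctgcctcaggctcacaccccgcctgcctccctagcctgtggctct
Tef second start, chr15:81811164-81811463, plus strand: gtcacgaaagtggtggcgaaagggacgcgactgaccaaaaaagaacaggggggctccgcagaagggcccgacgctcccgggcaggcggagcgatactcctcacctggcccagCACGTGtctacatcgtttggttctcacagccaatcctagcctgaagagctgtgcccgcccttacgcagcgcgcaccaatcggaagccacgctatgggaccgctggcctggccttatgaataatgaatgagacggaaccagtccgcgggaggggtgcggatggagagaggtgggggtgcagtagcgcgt
Bhlhe41, chr6:145865371-145865670, minus strand: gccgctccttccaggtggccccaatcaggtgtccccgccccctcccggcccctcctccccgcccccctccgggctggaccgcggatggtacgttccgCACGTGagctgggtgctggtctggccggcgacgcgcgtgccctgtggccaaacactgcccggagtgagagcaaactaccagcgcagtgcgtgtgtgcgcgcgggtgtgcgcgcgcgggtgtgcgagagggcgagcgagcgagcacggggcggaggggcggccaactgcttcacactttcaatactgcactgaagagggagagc
Nfil3, chr13:52980990-52981289, minus strand: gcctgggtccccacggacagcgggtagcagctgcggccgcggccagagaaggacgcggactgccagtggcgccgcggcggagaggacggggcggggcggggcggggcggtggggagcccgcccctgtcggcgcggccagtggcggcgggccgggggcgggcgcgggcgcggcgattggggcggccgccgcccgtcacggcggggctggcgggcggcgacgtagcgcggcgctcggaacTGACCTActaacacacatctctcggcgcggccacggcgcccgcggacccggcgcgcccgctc

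The Ciart window held 3 E-boxes, starting 116, 58 and 44 bases before the gene start. Across 32851 RefSeq windows of the same length, 7.15% held an E-box at least once and 29 windows (0.0883%) held 3 or more. Each window of Tef held 1 E-box, 127 and 138 bases before its start, and Bhlhe41 held 1, 153 bases before. The Nfil3 window held a ROR element core 12 bases before the start, on the strand opposite to the gene, and 6.45% of all windows held one. The windows of Dbp, Hlf and Rora held none of these letters, and no window of the 7 genes held a D-box (TTATGTAA or TTACGTAA, both strands), against 1.06% of all windows. A match describes letters in a window and is not a site or a cause.

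**Figure D1:**
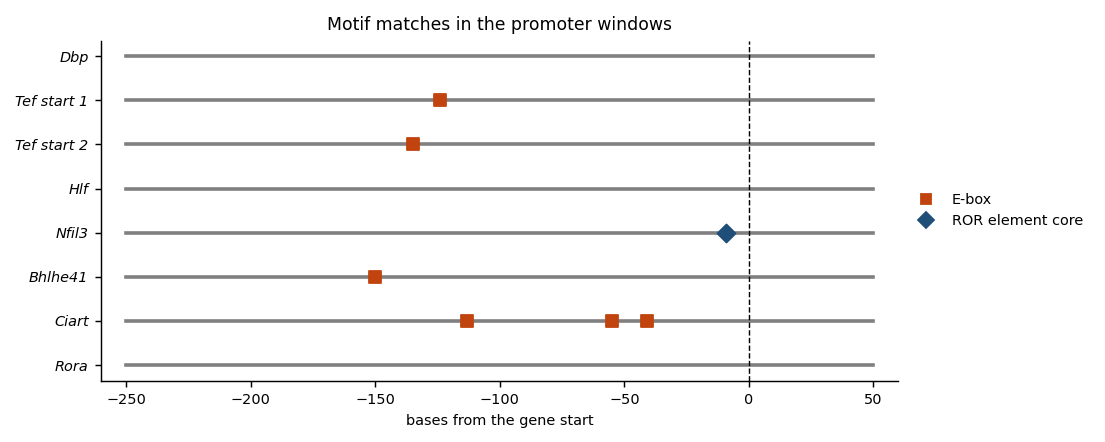
Matches to the motifs in the RefSeq promoter windows, as bases from the gene start (x axis) for each gene start (rows). Squares mark the centre of an E-box and the diamond the centre of a ROR element core. The Ciart row holds 3 squares, both Tef rows and the Bhlhe41 row hold 1 each, and the Nfil3 row holds the diamond.

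The libraries held 13193228 to 45724243 counts, with a median of 24538109. Prkaa1 stood at 14.1 to 22.7 CPM (counts scaled to library size with TMM factors) in 12 cKO libraries and at 13.2 to 31.1 CPM in 13 WT libraries, a log2 fold change of -0.36 ± 0.12 (SE) that did not pass (adjusted p = 0.981, edgeR). Counts for the whole gene may include transcripts that lack a deleted exon. All 10 tenocyte markers were counted in every library, with summed levels of 5190 to 24400 CPM, and genes of skeletal muscle fibres took 1.85% to 8.67% of counts. Library names carry 2 project prefixes, and the less common one is on a cKO cage male (replicate 3) and a WT cage female (replicate 4). WT running female replicate 2 and WT running male replicate 3 lay apart from the rest on the second principal component. No Cre was counted in 1 library labelled cKO (cage female replicate 3), and 1 labelled WT (running male replicate 2) carried the eGFP reporter without Cre. Carriage of eGFP, with a cut-off of 10 CPM (here by total counts), was 6 of 6 in cKO running and 2 of 6 in cKO cage libraries. It was 1 of 6 in WT running and 0 of 7 in WT cage libraries. Below the cut-off, cKO cage female replicate 2, male replicate 2 and male replicate 3 held 64, 45 and 25 eGFP counts. They held 35, 15 and 14 Cre counts. In cKO cage female replicate 3 both were 0, and WT libraries below the cut-off had at most 1 eGFP count. A level below the cut-off therefore does not show that the reporter is absent.

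Per transcript length, Dbp was the most abundant of the 8 genes and Hlf the least. Median FPKM over the 25 libraries was 53.9 for Dbp, 46.8 for Tef, 43.9 for Bhlhe40, 16.0 for Rora, 7.77 for Bhlhe41, 4.54 for Ciart, 4.35 for Nfil3 and 3.74 for Hlf. Dbp was above Tef in 21 of 25 libraries, Bhlhe40 above Rora and Rora above Bhlhe41 in 25 of 25, and Bhlhe41 above Ciart in 23 of 25. Neighbours were not separated beyond their spread elsewhere in that order: Tef was above Bhlhe40, Ciart above Nfil3 and Nfil3 above Hlf in 14 of 25 libraries each. The ratio of the highest to the lowest CPM among libraries was 13.2 for Ciart, 4.41 for Nfil3, 4.02 for Hlf, 2.81 for Bhlhe40, 2.7 for Dbp, 2.49 for Bhlhe41, 1.94 for Tef and 1.7 for Rora. Ciart therefore varied most among libraries and Rora least. The smallest counts of a gene in a library were 23 for Ciart and 53 for Nfil3, so counting error is largest for these.

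Runners carried more Dbp, the PAR bZIP activator, and less Nfil3, the repressor at the same elements. Over both genotypes the log2 fold change of running against cage was 0.68 ± 0.12 (SE) for Dbp and -0.88 ± 0.15 for Nfil3 (12 against 13 libraries). Of the 8 genes, Dbp was called higher and Nfil3 lower (edgeR, adjusted p under 0.05), where 1.43% of all tested genes were called, 0.611% higher and 0.814% lower. Since this comparison entered the choice of genes, nothing is read from that count or from the separation of libraries by activity given below. The share of all tested genes that separate by activity was not computed.

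Dbp (ENSMUSG00000059824, GRCm38 chromosome 7, 45705088 to 45710203, plus strand) had 60.7, 113 and 130 CPM as lowest, median and highest value in cKO running libraries, against 56.3, 63.5 and 77.0 CPM in cKO cage libraries. In WT running libraries it had 76.1, 94.8 and 114 CPM, against 48.2, 53.0 and 80.9 CPM in WT cage libraries. All 12 runners lay above the cage median, and 9 lay above the highest cage library. The 3 others were cKO running female replicate 3 (60.7 CPM), WT running female replicate 2 (76.1 CPM) and WT running male replicate 2 (78.3 CPM). The log2 fold change of running was 0.68 ± 0.17 in cKO and 0.67 ± 0.16 in WT, and Dbp was called in neither (background 0.0418% of genes in cKO and 0.131% in WT). Of the 2993 exon bases of Dbp in GENCODE, 539 (18%) overlap Sphk2 on the other strand. Sphk2 had a median of 16.3 CPM and a log2 fold change of 0.20 ± 0.08 in runners, and without stated strand the reads of the overlap cannot be told apart.

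Tef (ENSMUSG00000022389, chromosome 15, 81802421 to 81826863, plus strand) and Hlf (ENSMUSG00000003949, chromosome 11, 90336536 to 90390895, minus strand), the other PAR bZIP genes, differed less. For Tef the values were 86.8, 119 and 141 CPM in cKO running and 83.6, 106 and 129 CPM in cKO cage libraries. WT running libraries had 104, 116 and 146 CPM of Tef, and WT cage libraries 75.2, 94.7 and 111 CPM. For Hlf, cKO running libraries had 4.68, 13.4 and 18.8 CPM and cKO cage libraries 8.21, 11.5 and 13.2 CPM, while WT running libraries had 10.3, 11.7 and 15.4 CPM and WT cage libraries 7.18, 8.43 and 12.1 CPM. In all, 11 of the 12 runners lay above the cage median for each gene, with overlap between activities in both genotypes. The log2 fold changes of running were 0.28 ± 0.08 for Tef and 0.31 ± 0.15 for Hlf, and neither was called. With the muscle covariate in the fit Hlf stood at 0.15, and in cKO alone at -0.06 ± 0.19, against 0.21 ± 0.22 without it.

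Nfil3 (ENSMUSG00000056749, chromosome 13, 52967209 to 52981073, minus strand) had 3.52, 4.66 and 8.93 CPM in cKO running libraries, against 7.49, 9.17 and 9.49 CPM in cKO cage libraries. WT running libraries had 2.73, 4.66 and 8.07 CPM, and WT cage libraries had 8.47, 10.3 and 12.0 CPM. All 12 runners lay below the cage median and 10 lay below the lowest cage library. Every WT runner lay below every WT cage library, and in cKO the ranges overlapped through cKO running female replicate 3. The log2 fold change of running was -0.69 ± 0.22 in cKO and -1.07 ± 0.21 in WT, and that difference was tested as the genotype-by-running interaction. Nfil3 passed the call threshold in WT, in 16 of the 25 fits without 1 library, and not in cKO, with the same backgrounds as for Dbp. Running entered the choice of genes, so nothing is read from these calls or from the separation of the ranges either. Leaving out 1 library gave -0.93 (without cKO running female replicate 3) to -0.60 in cKO and -1.27 (without WT running male replicate 2) to -0.95 in WT.

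The library cKO running female replicate 3 stood at the cage end of the range in 5 genes. Among the 12 runners it had the lowest Dbp, Tef, Hlf and Ciart and the highest Nfil3. Its Hlf level of 4.68 CPM compares with 9.98 to 18.8 CPM in the other runners. It was not at an extreme of the runners for Bhlhe40 (128 CPM), Bhlhe41 (33.2 CPM) or Rora (59.7 CPM).

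As a ratio of FPKM values, Dbp to Nfil3 had a median of 29.4 (8.89 to 44.6) in cKO running libraries and 10.1 (8.92 to 12.1) in cKO cage libraries. The ratio was 31.6 (12.7 to 54.0) in WT running and 8.41 (5.69 to 10.4) in WT cage libraries. Among WT libraries the activities did not overlap, and among cKO libraries cKO running female replicate 3, at 8.89, was the 1 runner that did not lie above every cage library. The cage libraries of both genotypes stayed within 5.69 to 12.1, a narrower span than that of the runners. Dbp and Nfil3 had both passed the running comparison, in opposite directions, before the set was chosen. A difference by activity is therefore built into this ratio, and nothing is read from its separation.

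**Figure D2:**
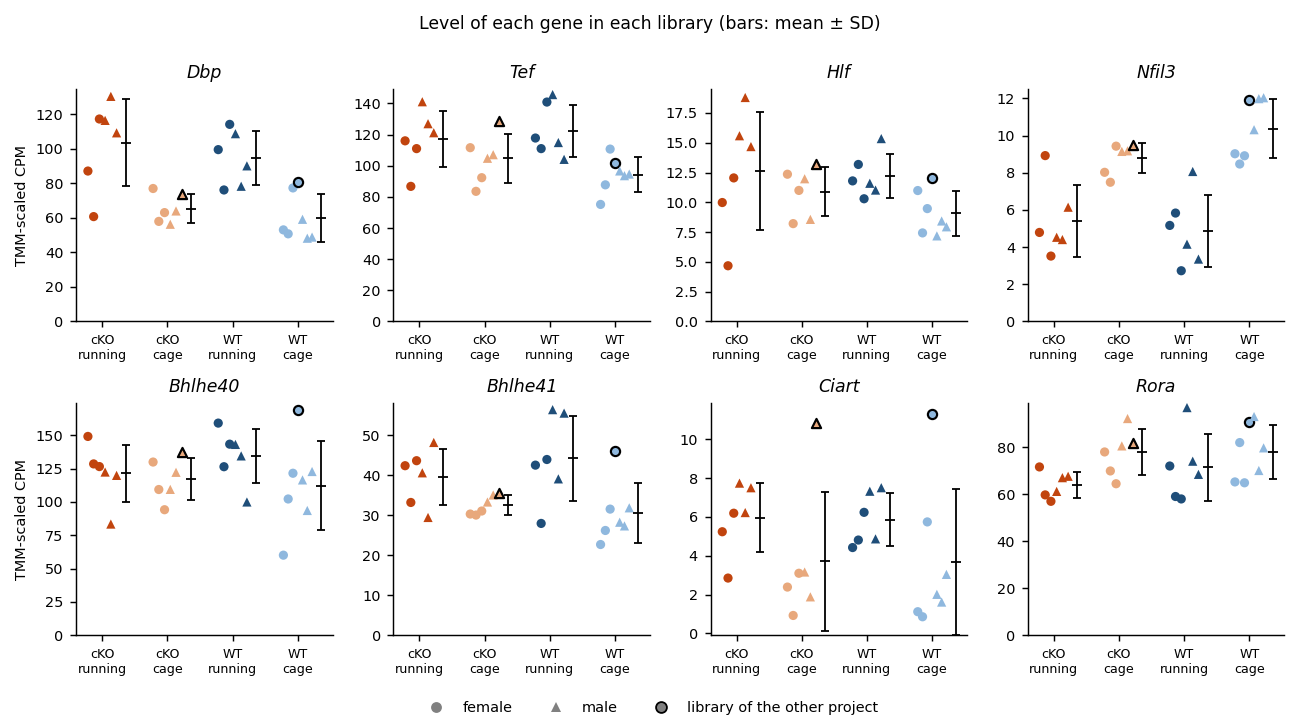
Level of each of the 8 genes in each library (y axes, TMM-scaled CPM, linear scale) in the 4 groups (x axes), with females and males marked and bars for the mean ± SD of each group. Runners stand above the cage median in 12 of 12 libraries for Dbp and below it in 12 of 12 for Nfil3, and the Ciart panels of both cage groups hold 1 library each near 11 CPM.

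The genes of the E-box repressors had smaller or less uniform differences. Bhlhe41 (ENSMUSG00000030256, chromosome 6, 145858243 to 145865558, minus strand) had 29.5, 41.5 and 48.2 CPM in cKO running and 30.1, 32.2 and 35.5 CPM in cKO cage libraries. It had 27.96, 43.2 and 56.4 CPM in WT running and 22.7, 28.3 and 46.0 CPM in WT cage libraries. In all, 10 of the 12 runners lay above the cage median, and the log2 fold change of running was 0.41 ± 0.11. A predicted transcript, Gm43909, lies over 19% of its exon bases on the other strand, at a median of 1.66 CPM.

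Bhlhe40 (ENSMUSG00000030103, chromosome 6, 108660629 to 108666925, plus strand) had 83.4, 124 and 149 CPM in cKO running and 94.2, 116 and 138 CPM in cKO cage libraries. In WT running libraries it had 99.95, 139 and 159 CPM, and in WT cage libraries 60.1, 116 and 169 CPM, so the ranges overlapped throughout. Its log2 fold change of running was 0.17 ± 0.12.

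Ciart (ENSMUSG00000038550, chromosome 3, 95878503 to 95882251, minus strand) had 2.85, 6.204 and 7.74 CPM in cKO running and 0.921, 2.74 and 10.8 CPM in cKO cage libraries. In WT running libraries it had 4.42, 5.55 and 7.50 CPM, and in WT cage libraries 0.855, 2.01 and 11.3 CPM. All 12 runners lay above the cage median and none above the highest cage library. The highest cage values, 11.3 and 10.8 CPM, belonged to the 2 libraries of the less common project prefix, 1 WT and 1 cKO, and the other 11 cage libraries reached at most 5.74 CPM. The log2 fold change of running was 0.70 ± 0.36 with all libraries and 1.34 ± 0.26 without those 2, and it was 1.06 without the cKO one alone. Both also lay above the other 11 cage libraries in Bhlhe40 (169 and 138 CPM against at most 130 CPM) and Bhlhe41 (46.0 and 35.5 CPM against at most 35.1 CPM). Without them, Bhlhe41 had a fold change of 0.50 ± 0.10, Dbp one of 0.75 ± 0.12 and Nfil3 one of -0.85 ± 0.16. No runner carries that prefix, so the prefix cannot be compared with activity within it.

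Rora (ENSMUSG00000032238, chromosome 9, 68653786 to 69388246, plus strand), the ROR element activator, was the least variable. It had 57.0, 64.1 and 71.6 CPM in cKO running and 64.5, 79.3 and 92.2 CPM in cKO cage libraries. WT running libraries had 58.0, 70.2 and 96.9 CPM, and WT cage libraries 64.9, 79.7 and 93.1 CPM. In all, 11 of the 12 runners lay below the cage median, and WT running male replicate 1 was the highest of all libraries. The log2 fold change of running was -0.20 ± 0.08 on counts and 0.02 on deposited FPKM (log2 with 1 or 0.1 added), a scale on which the median of all genes was itself 0.11 and 0.15.

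Markers of other cell types also differed between runners and cage libraries. All 8 macrophage markers and all 6 Schwann cell markers had positive log2 fold changes of running, with medians of 0.52 and 1.23. None of either list was called in edgeR, though 6 macrophage and 4 Schwann cell markers had an unadjusted p under 0.05, and DESeq2 called 1 and 2 of them. Summed macrophage markers were at 201 to 501 CPM in cKO running, 148 to 423 CPM in cKO cage, 165 to 399 CPM in WT running and 138 to 433 CPM in WT cage libraries. Summed Schwann cell markers were at 44.6 to 987 CPM in cKO running, 9.33 to 209 CPM in cKO cage, 16.1 to 173 CPM in WT running and 14.2 to 363 CPM in WT cage libraries, and no marker of either list was at 0 in a library. The muscle share of counts was 4.66% ± 1.75 in cKO running, 5.62% ± 1.06 in cKO cage, 6.64% ± 1.52 in WT running and 5.41% ± 1.56 in WT cage libraries (SD, n = 6, 6, 6 and 7), so it was lower with running in cKO and higher with running in WT. Mitochondrial rRNA took 20.8% ± 4.61 of counts in runners and 24.4% ± 3.85 in cage libraries (SD, n = 12 and 13). Of the 10 tenocyte markers, 1 was called for running over both genotypes in edgeR, against 1.43% of all tested genes. An unadjusted p under 0.05 was found for 3 of them, and DESeq2 and limma-voom called 1 each. The part of the macrophage, Schwann cell and tenocyte markers in the differences of the 8 genes was not tested. With a mitochondrial rRNA covariate, the fold changes of Dbp and Nfil3 were 0.64 ± 0.13 and -0.91 ± 0.17, and with a muscle covariate 0.65 ± 0.12 and -0.83 ± 0.15. An eGFP covariate put Nfil3 at -1.04, and with it Dbp was not called, the only such case among 40 alternatives. Over those 40 alternatives the Dbp value stayed within 0.64 to 0.78. In bulk tissue, fewer cells of a type and less RNA per cell cannot be told apart.

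Genotype was tested on the same libraries, and none of the 8 genes passed. The question was whether AMPKα1 loss changes these genes at either activity. As the mean of both activities, the log2 fold changes of cKO against WT were 0.12 ± 0.12 for Dbp, 0.02 ± 0.08 for Tef, 0.12 ± 0.15 for Hlf, -0.06 ± 0.15 for Nfil3, -0.05 ± 0.12 for Bhlhe40, -0.05 ± 0.11 for Bhlhe41, -0.03 ± 0.37 for Ciart and -0.10 ± 0.08 for Rora (12 against 13 libraries, adjusted p of 0.981 or more in edgeR). Of all genes tested, 0.00522% (1 gene) were called for this mean, 0% at cage activity and 0% in runners. None of the 8 genes had an unadjusted p under 0.05 in these comparisons, against 724, 217 and 2173 of all tested genes, and DESeq2 and limma-voom called none of the 8 either. Dbp averaged 84.4 ± 26.8 CPM in cKO and 75.8 ± 22.8 CPM in WT libraries (SD, n = 12 and 13). Nfil3 averaged 7.09 ± 2.28 CPM in cKO and 7.85 ± 3.31 CPM in WT libraries.

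A p that misses the threshold does not show equal levels, and the 95% intervals give what the data leave room for. For Dbp the interval of cKO against WT was -0.21 to 0.45 at cage activity and -0.22 to 0.47 in runners, and for Nfil3 -0.68 to 0.17 and -0.32 to 0.57. For the mean of both activities the intervals were -0.15 to 0.19 for Tef, -0.19 to 0.43 for Hlf, -0.30 to 0.20 for Bhlhe40, -0.28 to 0.18 for Bhlhe41, -0.79 to 0.72 for Ciart and -0.26 to 0.07 for Rora. Among these, the interval of Rora was the narrowest and that of Ciart the widest.

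The effect of running did not differ detectably between genotypes for any of the 8 genes, where 0% of all genes were called for that interaction (1377 had an unadjusted p under 0.05, none of the 8 among them). The difference in log2 fold change, cKO minus WT, was 0.38 ± 0.30 for Nfil3 (95% interval -0.24 to 1.00, adjusted p = 0.716, edgeR). For Dbp it was 0.00 ± 0.23 (-0.48 to 0.48, adjusted p = 0.999, edgeR). The other genes lay between -0.24 ± 0.22 for Bhlhe41 and 0.07 ± 0.73 for Ciart. Hlf was at -0.21 ± 0.30, and at -0.42 with the muscle covariate.

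**Figure D3:**
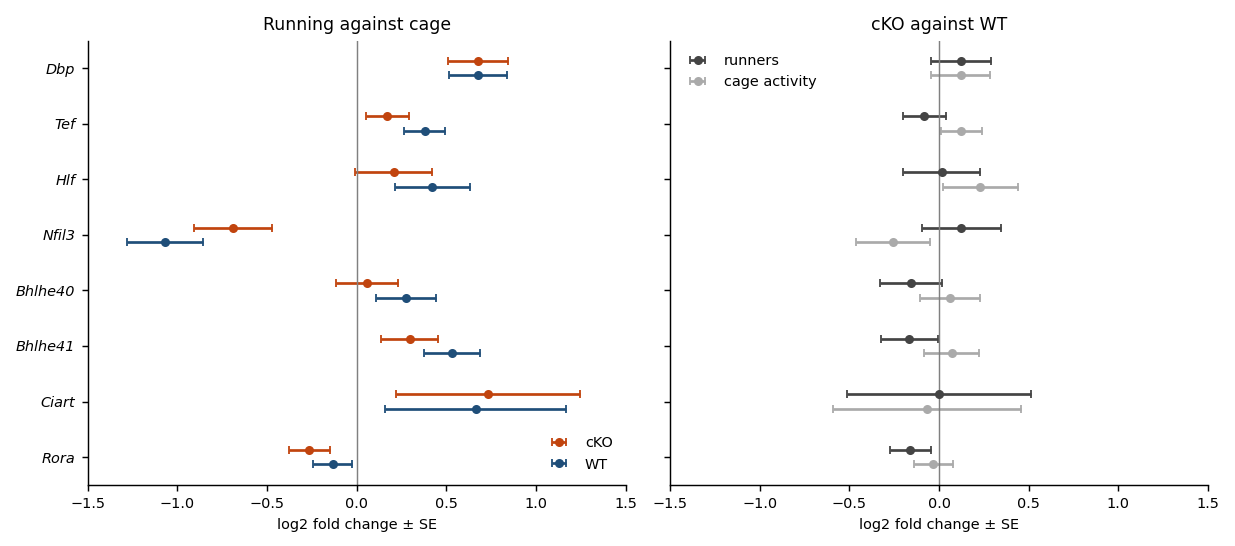
Log2 fold changes with standard errors (x axes) of the 8 genes (rows), for running against cage in cKO and WT (left) and for cKO against WT in runners and at cage activity (right). The Dbp and Nfil3 points of both genotypes lie on opposite sides of 0 on the left, and on the right the points lie between -0.25 and 0.23.

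Males and females were also compared, and no gene of the 8 passed, against 0.616% (118) of all genes. The smallest unadjusted p was that of Rora, with a log2 fold change of male against female of 0.19 ± 0.08 (unadjusted p = 0.0259, adjusted p = 0.402, edgeR). Rora averaged 77.7 ± 11.6 CPM in 12 males and 68.7 ± 10.2 CPM in 13 females. For the combination of sex and running, 0% of genes passed. An unadjusted p under 0.05 was found for 2336 genes, with Hlf the only one of the 8 among them (0.63 ± 0.26, unadjusted p = 0.0239, adjusted p = 0.381, edgeR). Male runners had 14.5 ± 2.86 CPM of Hlf and female runners 10.3 ± 3.01 CPM (SD, n = 6 each), while male cage mice had 9.56 ± 2.44 CPM (n = 6) and female cage mice 10.2 ± 1.90 CPM (n = 7). The Hlf value was 0.41 ± 0.22 with the muscle covariate. For the same combination, all 8 slow muscle fibre genes were negative (median -1.05) and all 6 adipocyte and all 6 Schwann cell markers positive (medians 1.27 and 2.62), none called in edgeR, 8, 6 and 6 of them with an unadjusted p under 0.05, and 1 Schwann cell marker called by DESeq2. The part of the adipocyte and Schwann cell markers in the Hlf value was not tested. Neither the Rora nor the Hlf result passed over all genes, and DESeq2 and limma-voom called none of the 8 in either comparison.

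Some of the 8 genes also covaried among libraries of the same group. The mean difference between runners and cage mice does not enter this measure. Log2 CPM were taken with the 4 group means and 1 sex term shared by all groups removed. Sex differences particular to a group therefore stay in. The sex-by-running values were 0.63 ± 0.26 for Hlf, 0.37 ± 0.22 for Dbp and -0.81 ± 0.36 for Arntl. Their part in the relations was not tested. Correlations were computed for the 28 pairs and for each gene with Arntl, 36 relations in all. Permutation tests within groups, with both sexes together, used 100000 resamples (two-sided), with Benjamini-Hochberg adjustment over the 36. By Pearson's r 13 passed, 10 of the 28 pairs and 3 of the 8 relations with Arntl, and 7 of the 36 passed by Spearman's rho. The smallest r called was 0.50 in size. Of the 36 relations 38.9% (14) were at least that large, against 10.5% of all pairs of tested genes, and with every other tested gene the share was 3.26% for Dbp, 8.12% for Tef, 13.6% for Hlf, 2.54% for Nfil3, 23.8% for Bhlhe40, 6.12% for Bhlhe41, 3.74% for Ciart and 3.47% for Rora. The cut-off was taken from these same 36 relations, so the 13 called ones reach it by construction. These shares are a description with no test. Dbp and Tef were the closest pair, with r = 0.78 and rho = 0.78 (adjusted p = 0.00144 and 0.00126, permutation test). Without the 2 libraries farthest from the median of Dbp, their r was 0.72.

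Dbp also went with Ciart (r = 0.65, adjusted p = 0.00367, rho = 0.62, adjusted p = 0.0143, permutation test, r = 0.57 without the 2 farthest libraries) and with Hlf (r = 0.69, adjusted p = 0.0167, rho = 0.53, adjusted p = 0.0501, r = 0.45). Dbp and Nfil3 were negatively related within groups (r = -0.55, adjusted p = 0.0328, rho = -0.45, adjusted p = 0.0945, permutation test, r = -0.52 without the 2 farthest). Without cKO running female replicate 3 alone, r was -0.33 for Dbp and Nfil3 (adjusted p = 0.293) and 0.46 for Dbp and Hlf (adjusted p = 0.109), against 0.72 for Dbp and Tef (adjusted p = 0.0027). Calls were also lost without that library for Hlf with Ciart (adjusted p = 0.0634), Bhlhe40 with Rora (0.0534), Dbp with Arntl (0.0588) and Ciart with Arntl (0.0534). Unadjusted p-values were 4e-05, 0.00051, 0.00324 and 0.0119 for Dbp with Tef, Ciart, Hlf and Nfil3.

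Among the other pairs that hold at least 1 gene of an E-box repressor, Bhlhe41 and Ciart (r = 0.60, adjusted p = 0.00225, rho = 0.70, adjusted p = 0.00072, permutation test) and Tef and Ciart (r = 0.65, adjusted p = 0.00225, rho = 0.61, adjusted p = 0.0143) passed by both measures, as did Tef and Bhlhe40 (r = 0.53, adjusted p = 0.0287, rho = 0.60, adjusted p = 0.0165). Without the 2 farthest libraries, r was 0.50, 0.59 and 0.61 for these pairs. Bhlhe40 with Bhlhe41 (r = 0.58), Bhlhe40 with Rora (r = 0.55) and Hlf with Ciart (r = 0.50) passed by r (adjusted p = 0.0316, 0.0316 and 0.0195, permutation test) and not by rho (adjusted p = 0.0501, 0.0501 and 0.0592). Without the 2 libraries of the less common project prefix, 6 of the 36 relations passed. Those among Dbp, Tef and Ciart were all called there (adjusted p of 0.0137 for Dbp with Tef, 0.0309 for Dbp with Ciart and 0.0211 for Tef with Ciart), as was that of Dbp with Nfil3 (r = -0.69, adjusted p = 0.0211), and those of Bhlhe40, Dbp with Hlf, Dbp with Arntl and Hlf with Ciart were not. On log2 FPKM with 0.1 added, calls were lost for Dbp with Nfil3 (r = -0.18) and Hlf (r = 0.54), Tef with Ciart (r = 0.30) and Bhlhe40 (r = 0.04), Bhlhe40 with Bhlhe41 (r = 0.48) and Rora (r = 0.19), and Hlf with Arntl (r = -0.32). The relations of Dbp with Tef, Ciart and Arntl, and of Ciart with Hlf, Bhlhe41 and Arntl, were called on that scale too.

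Arntl, which encodes BMAL1, was negatively related to Hlf, Dbp and Ciart, and the other 5 of its 8 relations did not pass. Its r was -0.71 with Hlf (adjusted p = 0.00225, rho = -0.68, adjusted p = 0.00948, permutation test), -0.63 with Dbp (adjusted p = 0.0138, rho = -0.62, adjusted p = 0.0148) and -0.57 with Ciart (adjusted p = 0.0206, rho = -0.49, adjusted p = 0.0592). Without the 2 farthest libraries, r was -0.65 for Hlf, -0.44 for Dbp and -0.27 for Ciart. The relations that did not pass had r = 0.37 with Nfil3, -0.42 with Bhlhe41, -0.24 with Tef, 0.06 with Bhlhe40 and -0.02 with Rora (adjusted p = 0.157, 0.12, 0.413, 0.816 and 0.93, permutation test). The negative relation of Ciart with Arntl rested on the libraries of the less common prefix, without which r was -0.22 (adjusted p = 0.394).

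**Figure D4:**
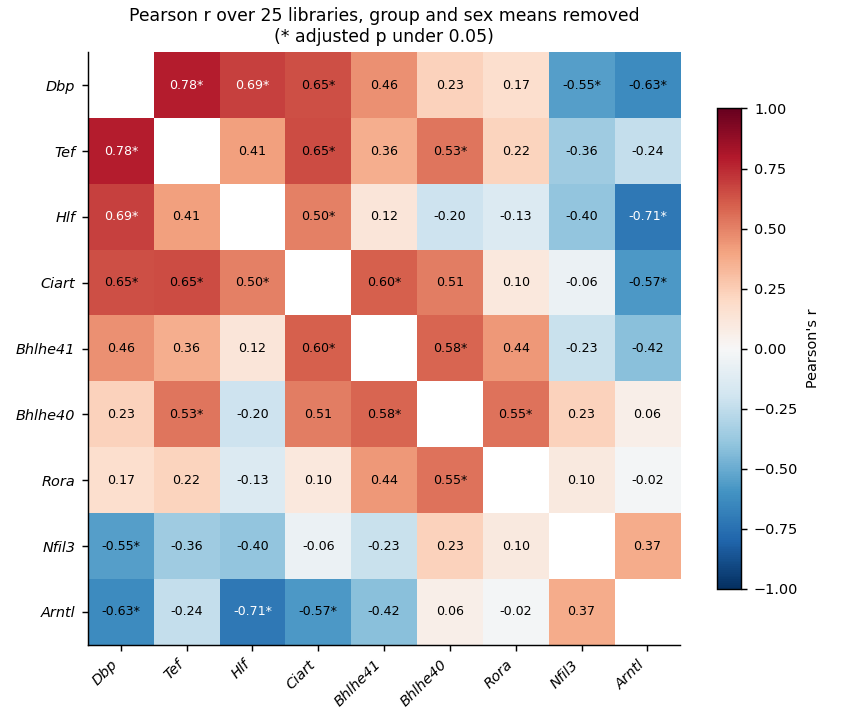
Pearson r between pairs of the 8 genes and Arntl over 25 libraries, with group means of log2 CPM and the shared sex term removed (colour, red for positive and blue for negative as the scale shows), and asterisks for an adjusted p under 0.05. The cells of Dbp with Tef (0.78) and Hlf with Arntl (-0.71) hold the most positive and most negative values.

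Over all 25 libraries, which includes the difference between runners and cage mice, the genes most like Dbp among 11719 genes with a mean log2 CPM of at least 1 were Tef (r = 0.82), the clock repressor gene Per3 (0.78), Smurf1 (0.76), a ubiquitin ligase gene, Ciart (0.75) and Iffo1 (0.74). With group means and the shared sex term removed, r was 0.78 for Tef, 0.79 for Per3, 0.44 for Smurf1, 0.65 for Ciart and 0.56 for Iffo1. The most opposite to Dbp were Nfil3 (-0.81), the endoplasmic reticulum chaperone gene Hspa5 (-0.78) and Clock (-0.72), at -0.55, -0.75 and -0.36 with means removed. For Nfil3 the most alike were Clock (0.80), the chaperone gene Hsp90aa1 (0.80), the phosphodiesterase gene Pde7a (0.78), the chromatin remodeller gene Smarca5 (0.78) and Rap1gap2 (0.75), at 0.45, 0.71, 0.44, 0.56 and 0.52 with means removed. The most opposite to Nfil3 were Dbp (-0.81), Atp13a2 (-0.76), a lysosomal transporter gene, and Iffo1 (-0.74). These values are descriptions, and the libraries share the separation by activity.

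**Figure D5:**
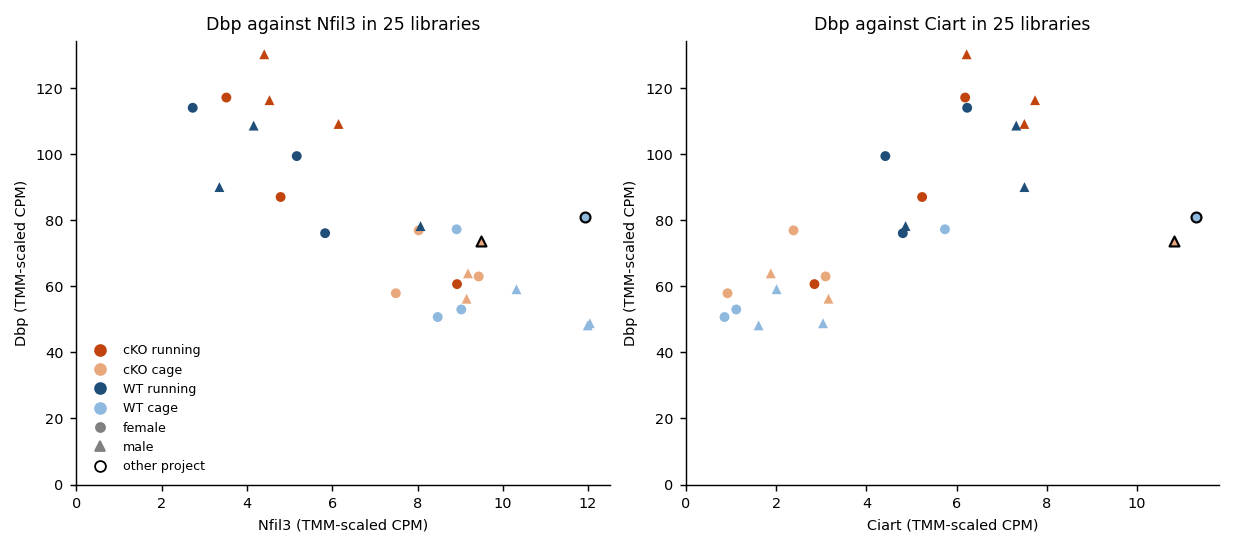
Dbp (y axes) against Nfil3 (left) and Ciart (right) in TMM-scaled CPM, 1 point per library, coloured by group with circles for females and triangles for males. Outlined points are the 2 libraries of the less common project prefix, which lie at Ciart levels of 11.3 and 10.8 CPM, and the runner at 60.7 CPM of Dbp is cKO running female replicate 3.

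The other clock genes, the lists of the next paragraph and the cell-type markers were chosen with earlier results of these data known. Nothing is therefore read from their calls for running, and their p-values for running are a description. Of the 18 other core clock genes listed, 1 was called higher and 1 lower for running as the mean of both genotypes. Over all tested genes, 0.611% were called higher and 0.814% lower. Of the 18, 10 were positive, against 52.2% of all tested genes. Their median log2 fold change was 0.03, against 0.01 for all tested genes. Nr1d1, which encodes the repressor at ROR elements, rose by 0.35 ± 0.09 on the log2 scale (adjusted p = 0.0498, edgeR), and Clock fell by 0.35 ± 0.07 (adjusted p = 0.0144). Nr1d1 was called in 6 of the 25 fits without 1 library and in 13 of all 40 alternatives, and Clock in 25 and 36. Arntl was at -0.51 ± 0.19 and Per3 at 0.38 ± 0.16 (adjusted p = 0.212 and 0.256, edgeR). No core clock gene of the list was called for genotype, sex or either interaction by edgeR, DESeq2 or limma-voom, and at most 2 had an unadjusted p under 0.05 in any of these.

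Of 10 genes listed as clock output, among them targets of the PAR bZIP factors in liver, 1 was called higher in runners, Tspan4, a tetraspanin gene (0.50 ± 0.12, adjusted p = 0.0315, edgeR), and 4 were positive in all. Over all tested genes, 0.611% were called higher, 0.814% were called lower and 52.2% were positive. Tspan4 was called in 14 of the 25 fits without 1 library. Ppara, the fatty acid receptor gene, was at -0.84 ± 0.22 (adjusted p = 0.0548, edgeR). In males, 1 of the 10 was called, against 0.616% of all tested genes. It was Alas1, the heme synthesis enzyme gene, which was higher (0.42 ± 0.08, adjusted p = 0.00915, edgeR). Of 11 genes known to be induced by glucocorticoids, 10 had negative values for running and Per1 was at 0 after rounding, with a median of -0.26, down to -1.44 ± 0.33 for Pdk4, which encodes a kinase that inhibits pyruvate dehydrogenase and was the 1 called lower (adjusted p = 0.024, edgeR). Pdk4 was called in 23 of the 25 fits without 1 library. Fkbp5, a cochaperone gene of the list, was higher in males (1.00 ± 0.20, adjusted p = 0.00901, edgeR). Of 10 hypoxia genes, 5 were positive for running, with a median of 0.03, and none was called in edgeR (3 with an unadjusted p under 0.05, 2 called by DESeq2 and 2 by limma-voom).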

How the data were processed

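RNA of 25 mouse Achilles tendon libraries was extracted with TRIzol and spin columns, per the labels' protocols. The submitters' processing notes name cutadapt 2.3, FastQC 0.11.8, STAR 2.7.8a, RSEM 1.3.3 and GRCm38 (mm10). The deposited expected counts were whole numbers in every cell and were used as deposited, and the deposited FPKM values served for levels per length and as an alternative. Strand and annotation release are not given in the sources used here, and gene positions were read from a GENCODE annotation of GRCm38.

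Counts were analysed with edgeR 4.0.16 in R 4.3.3 (filterByExpr, TMM scaling, quasi-likelihood F-tests, 4 group means with a sex term, and 8 means of group and sex for the sex-by-running interaction). P-values are two-sided, adjusted by Benjamini-Hochberg over 19155 genes, with an adjusted p under 0.05 taken as a call. Depth was 13193228 to 45724243 counts per library. Relations among genes were computed in Python 3.11.15 with scipy 1.17.1. The 8 genes and all other lists were chosen with earlier results of these data known. The rule for other named genes took those of the lists called in any comparison (up to 6 each by smallest p) and the 5 most and 3 least similar to Dbp and to Nfil3. Markers of cell types were given by list, and the tenocyte marker called for running was not named. Arntl, Per3 and Ppara were named after their values were seen. The share of all pairs of tested genes with a within-group r at least as large as the smallest one called was computed after the relations had been seen. Scripts were tested on simulated data. Alternatives were RLE scaling, no filter, 1 CPM in 6 libraries, DESeq2 1.42.0, limma 3.58.1 (voom, and log2 FPKM with 1 or 0.1 added), covariates, a replicate block, and libraries left out. Fits of the relations without the less common prefix or without cKO running female replicate 3 were added after the data had been seen.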

Additional observations from a re-analysis of the deposited data

How the results depend on the processing

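Depth limits Ciart and Nfil3 most, with as few as 23 and 53 counts in a library. The differences of Dbp and Nfil3 between runners and cage libraries had the same sign in all 40 alternative fits, at 0.64 to 0.78 and -1.04 to -0.62 on the log2 scale over both genotypes. None of the 8 genes was called for genotype, sex or either interaction in any alternative. The cause of the changes below was not tested.

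For running as the mean of both genotypes, 273 genes were called (117 higher, 156 lower). The number was 715 with no filter, 637 with DESeq2, 912 with limma-voom, 155 (110 higher, 45 lower) and 147 (104 higher, 43 lower) on log2 FPKM with 1 and 0.1 added, and 148 with a replicate block. It was 11 with an eGFP covariate, 61 with a mitochondrial rRNA covariate, 127 without the 2 libraries of the less common prefix, 135 without the 2 whose reporters go against their labels and, with the muscle covariate, 393 (220 higher, 173 lower). On log2 FPKM the median of all genes was 0.11 and 0.15, against 0.01 on counts. Of the 8 genes, 2 were called, against 4 with DESeq2, 5 with limma-voom, 1 with eGFP (Nfil3, while Dbp was not called) and 4 without the less common prefix. Running entered the choice of genes, so nothing is read from these counts or from those of the 8 genes in WT and cKO below.

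In WT, 25 genes were called for running. The number was 197 with no filter, 157 with DESeq2, 90 with limma-voom, 14 on log2 FPKM with 0.1, 305 with muscle, 16 with eGFP, 12 with the replicate block, and 12, 6 and 10 without the less common prefix, the 2 libraries apart on the second component and the 2 reporter libraries. Of the 8 genes, 1 was called, against 2 with no filter, 2 with DESeq2, 3 with limma-voom, 3 with muscle and 0 on either FPKM scale, with the block, without the prefix or without the 2 apart. In cKO, 8 genes were called, against 574, 208, 384, 5 and 3 (FPKM with 1 and 0.1), 14 with muscle, 0 with eGFP, 5 with mitochondrial rRNA, 1 with the block, and 3, 16 and 4 without the same pairs of libraries. Of the 8 genes, 0 were called in cKO, against 2 with no filter, 1 with DESeq2 and 2 with limma-voom.

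For genotype, no filter gave 4 genes at cage activity, 282 in runners, 91 for the mean and 65 for the interaction. In runners 1 was called on log2 FPKM with 1 and 2 without the reporter libraries. For the mean, where 1 was called, it was 2 with DESeq2 and 2 without the reporter libraries, and 0 with limma-voom, both FPKM scales, eGFP, the block and without the 2 apart. For sex, 118 became 445, 251, 442, 41, 46 and 214 with no filter, DESeq2, limma-voom, FPKM with 1, FPKM with 0.1 and muscle. For sex by running, 0 became 887 with no filter, 24 with DESeq2 and 9 with mitochondrial rRNA. Without each library in turn, the counts ran from 127 (WT running male replicate 2) to 568 (WT cage female replicate 1) for running, 11 (WT running male replicate 2) to 39 (cKO running male replicate 2) in WT, 3 (cKO cage female replicate 1) to 60 (WT cage female replicate 1) in cKO, 0 to 2 for genotype in runners and for the mean, and 0 to 25 for sex by running, with 0 to 2 of the 8 genes for running in WT.

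Of 1896 alternative values of the 8 genes in the 6 tested comparisons, 164 had the sign opposite to that in the fit reported, none of them called. At cage activity and in runners taken alone there were 18 and 35 of these, with Ciart for genotype at cage activity at -0.64 to 0.54, against -0.07. For genotype as the mean, these were for Ciart 0.34 with limma-voom, 0.20 and 0.30 on FPKM with 1 and 0.1, 0.014 with muscle, 0.25 with eGFP, 0.051 with mitochondrial rRNA, 0.027 with no sex term and 0.055 with the replicate block. They were for Bhlhe40 0.025 and 0.026 on FPKM and 0.013 with muscle, and for Bhlhe41 0.029 with limma-voom, 0.0062 on FPKM with 0.1, 0.027 with eGFP and 0.021 without the less common prefix. They were for Hlf -0.0103 and -0.0047 on FPKM, for Nfil3 0.005 on FPKM with 0.1 and 0.024 without the reporter libraries, and for Tef -0.017 without the 2 apart. Nfil3 in runners was -0.054 with limma-voom and -0.13 with eGFP.

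For the genotype-by-running interaction, Dbp was at -0.0072 with RLE, -0.0073 with DESeq2, -0.0074 with mitochondrial rRNA, -0.072 with limma-voom, -0.033 with muscle, -0.11 with the replicate block, and -0.052, -0.077 and -0.056 without the prefix, the 2 apart and the reporter libraries. Ciart was at -0.30 with limma-voom, -0.097 on FPKM with 0.1, -0.031 with no sex term and -0.57 with the block, and on FPKM with 1 and 0.1 Rora was at 0.119 and 0.125 and Tef at 0.206 and 0.209. For sex, on FPKM with 1 and 0.1, Bhlhe41 was at -0.118 and -0.136, Hlf at -0.182 and -0.231, and Tef at -0.019 and -0.02, and Dbp was at 0.003 with muscle, 0.023 with mitochondrial rRNA, 0.013 without the prefix and 0.011 without the reporter libraries. For sex by running, Ciart was at -0.23, Nfil3 at 0.19, Rora at -0.0036 and Tef at -0.048 with limma-voom, Nfil3 at 0.043 and 0.063 on FPKM and 0.014 without the 2 apart, and Rora at -0.035 without the prefix. Leaving out 1 library gave, for genotype as the mean, -0.11 to 0.013 for Bhlhe40, -0.096 to 0.024 for Bhlhe41, -0.32 to 0.26 for Ciart, -0.18 to 0.036 for Nfil3 and -0.0069 to 0.057 for Tef. It gave -0.11 to 0.32 for Nfil3 in runners, -0.54 to 0.66 for Ciart and -0.092 to 0.12 for Dbp in the interaction, -0.073 to 0.033 for Dbp by sex, and for sex by running -0.092 to 0.89 for Ciart, -0.44 to 0.027 for Nfil3, -0.047 to 0.084 for Rora and -0.051 to 0.077 for Tef.

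The labels do not say that replicate numbers pair libraries. Same-numbered libraries of 1 sex in different groups had a median correlation of -0.021 over 34 pairs (-0.31 to 0.091). Other-numbered ones had a median of -0.063 over 83 pairs (-0.362 to 0.337). These spans overlap, so they do not settle whether numbers pair libraries, and the block values above rest on the number alone. Of the 36 relations, 13 passed, 6 without the less common prefix and 7 without cKO running female replicate 3. On log2 FPKM with 0.1, Dbp with Nfil3 had r = -0.18 and Tef with Bhlhe40 r = 0.04, neither called. That scale added calls for Dbp with Rora (0.68), Tef with Rora (0.65), Bhlhe40 with Ciart (0.66) and Bhlhe41 with Arntl (-0.52). The muscle covariate ended that of Bhlhe40 with Rora (0.36) and added Tef with Hlf (0.74), Bhlhe41 with Arntl (-0.74), Bhlhe40 with Ciart (0.64) and Dbp with Bhlhe41 (0.56). Without the 2 apart, Tef with Bhlhe40 (0.47) and Bhlhe40 with Rora (0.51) were lost, and Tef with Hlf (0.55) and Tef with Nfil3 (-0.54) added.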
